A study of Mus musculus with 2 samples.

Results

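The 10 genes described here encode proteins known from skeletal muscle, measured in RNA of the olfactory bulb, where the axons of the olfactory sensory neurons end. The gene names are Myl10, Myoz1, Acta1, Ckm, Myl1, Mylpf, Tnnt3, Tnni2, Actn3 and Atp2a1, which makes 10 of the 37068 gene names on the array, and 17 probes carry them. Myl10 and Myoz1 were chosen by their measured difference in the same comparison, where they stood among the lowest of all genes. The other 8 were added as skeletal muscle genes to see whether they go with that pair. The values of Myl10 and Myoz1 are therefore a description and support nothing.

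The odor-enriched group was 1 mouse under odor-enriched conditions, and the control group was 1 mouse under standard odor conditions. The sources used here do not give strain, genotype, age, sex, odorants or the length of exposure. Total RNA was labelled with the dye Cy3 and hybridized to 1 Agilent expression array per mouse, 2 arrays in all. The labels call the tissue neurons of the bulb and its source the bulb, with no sorting step, and all 10 marker genes of bulb neurons that were looked up, such as Th, Gad1 and Tbr1, were well above background on both arrays. With 1 array per group no test between groups was possible, no difference has a replicate check, and mouse, array and condition cannot be told apart. In bulk tissue, fewer cells of a type and less RNA per cell cannot be told apart either.

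Skeletal muscle contracts when myosin filaments pull on actin filaments inside the sarcomere. Calcium released from the sarcoplasmic reticulum binds troponin and frees the actin for myosin, and a pump returns the calcium afterwards. Z-discs anchor the actin filaments, and creatine kinase rebuilds the ATP that contraction uses. The bulb is not a muscle, and its contractile cells are the smooth muscle cells and pericytes of its blood vessels.

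Each value comes from short probes, so the sequences of the pair, of Mylpf, a fast fibre relative of Myl10, and of the muscle actin are given, 5′ to 3′, as the array files hold them. The files place the first Myl10 probe on the plus strand at chr5:137173854-137176603 of mm9, a span of 2750 bases for 60 bases of probe. The second Myl10 probe, designed on the partial messenger of a form called PLRLC-B, is unmapped in the files. The Myoz1 probe lies on the minus strand at chr14:21468483-21468542, and its first 30 bases are shown. The Mylpf probe lies on the plus strand at chr7:134356749-134356985 and the Acta1 probe on the minus strand at chr8:126416197-126416256. An exon annotation of mm9 was not used here.
Myl10, first probe: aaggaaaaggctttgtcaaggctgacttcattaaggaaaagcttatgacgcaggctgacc
Myl10, second probe: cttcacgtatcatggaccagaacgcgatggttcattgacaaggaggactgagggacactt
Myoz1: atgctggacaggatgccccaactgttaatc
Mylpf: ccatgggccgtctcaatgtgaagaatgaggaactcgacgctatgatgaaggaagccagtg
Acta1: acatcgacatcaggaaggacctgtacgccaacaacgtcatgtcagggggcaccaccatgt
No stretch of the first Myl10 probe, the Myoz1 probe or the Acta1 probe as long as 14 bases was found in a probe of another gene name. That search covered the array's probes and not whole transcripts, so it cannot show whether a probe also binds RNA of another gene.

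Of the 10 genes, Myl10 and Myoz1 were at least 2-fold lower in the odor-enriched bulb, Acta1 was at least 2-fold higher, 5 differed by less than 2-fold, and Ckm and Actn3 were not well above background on either array. Among all 23872 genes well above background on both arrays, 5.52% were lower by 2-fold or more and 11.5% higher. The comparison that chose the pair is the same one, so nothing is read from these shares for Myl10 and Myoz1. Of all gene names, 64.4% were well above background on both arrays, against 8 of these 10. Each difference is the odor-enriched value less the control value, where a value is the log2 processed signal minus the 75th percentile of its array. The whole scale depends on that choice: scaling on the E1A spike-in probes, controls for RNA added to the labelling reaction, moved the median of all genes by -1.76, whereas the other settings moved it by -0.17 to 0.33. Of all genes, 2747 were at least 2-fold higher and 1317 lower as reported, against 2136 and 2061 with median centring, 4466 and 582 with the series matrix and 376 and 19961 with E1A scaling.

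Myl10 encodes a regulatory light chain of myosin, described in mouse in precursor lymphocytes under the name PLRLC. Its first probe had a processed signal of 62.2 on the odor-enriched array and 946 on the control array. The errors that the scanner software attached to these signals were 6.43 on the odor-enriched array and 94.6 on the control array. Both spots were well above background, and the control spot was by far the brighter. After scaling, the gene stood at -1.70 in the odor-enriched bulb and 1.92 in the control bulb, a difference of -3.62 or 12.3-fold lower. Its second probe was not above background on either array, with 1.65 in the odor-enriched and 0.970 in the control bulb. Every value of Myl10 thus comes from 1 spot per array.

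Myoz1 encodes myozenin 1, or calsarcin-2, a Z-disc protein of fast fibres that binds alpha-actinin and calcineurin. Its single probe gave 44.7 on the odor-enriched array and 604 on the control array, with errors of 4.75 on the odor-enriched array and 60.4 on the control array. The gene stood at -2.17 in the odor-enriched bulb and 1.27 in the control bulb, a difference of -3.45 or 10.9-fold lower. Both members of the pair were therefore bright in the control bulb and low, though still well above background, in the odor-enriched bulb. Of the 23872 measured genes, 7 stood as low as Myl10 or lower and 11 as low as Myoz1 or lower.

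The spots themselves gave the same picture before any correction. The Myl10 spot had a mean brightness of 89.0 over a local background of 20.0 on the odor-enriched array, and 997 over 16.0 on the control array. The Myoz1 spot had a mean brightness of 73.3 on the odor-enriched array and 627 on the control array. Neither spot was marked as an outlier, and the spots printed around them had a median difference of 0.04 for Myl10 and -0.04 for Myoz1. Over all 17 probes that median lay between -0.14 and 0.38, so none of the genes sat in a bright or dim patch of the 1.2 log2 units used as a limit.

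**Figure D1:**
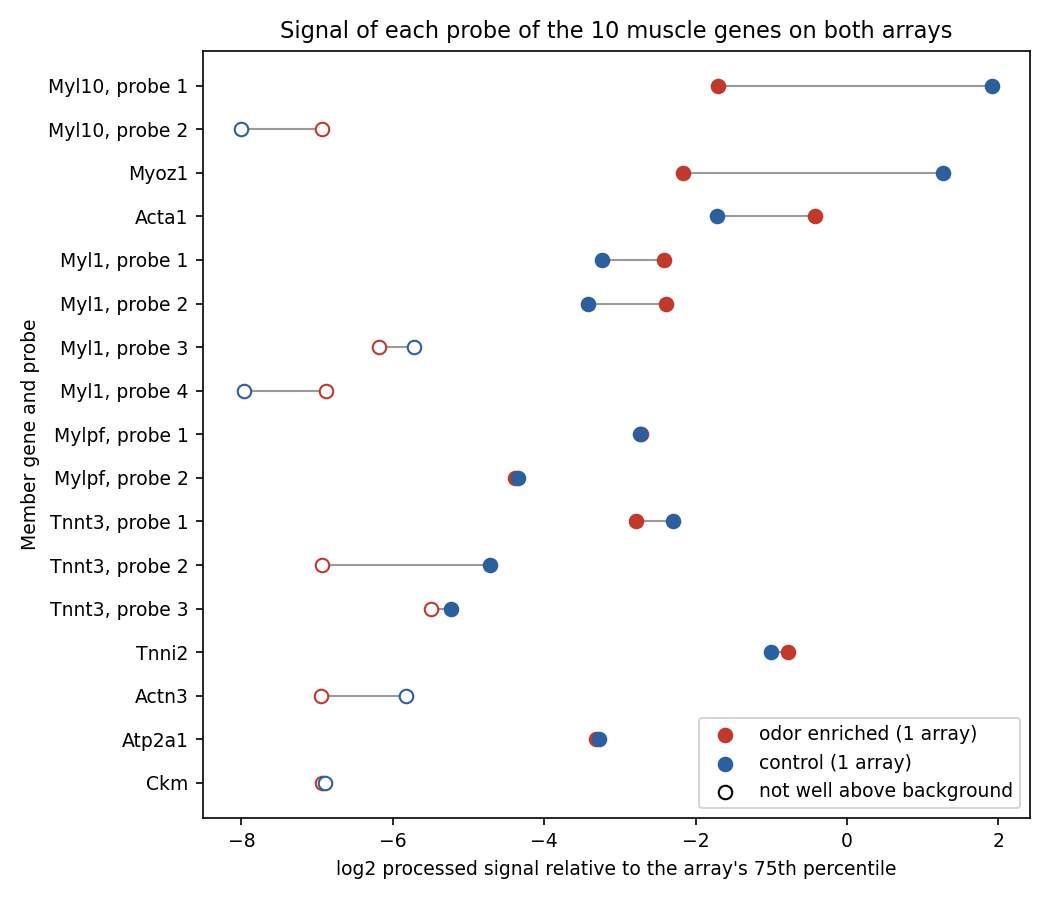
Log2 processed signal minus the 75th percentile of the array (horizontal axis) for each of the 17 probes, with odor enriched in red and control in blue, 1 array each, and open circles where a probe was not well above background. The first Myl10 probe and the Myoz1 probe are far lower in the odor-enriched bulb, while the Mylpf, Tnni2 and Atp2a1 points nearly coincide; positions of different probes on the axis are not comparable levels.

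Acta1, the actin of the skeletal muscle thin filament, went the other way. Its probe gave 151 on the odor-enriched array and 75.9 on the control array, or -0.42 and -1.72 after scaling in the odor-enriched and the control bulb. The difference was 1.30, or 2.46-fold higher, with 0.86 under normexp background correction and -0.46 under E1A scaling. The probe lies in a gene whose coding sequence is closely shared with the actins of heart and smooth muscle. On their own probes these differed in the same direction: Actc1, the heart actin, stood at 0.98 in the odor-enriched and -0.85 in the control bulb (1.83), and Acta2, of vascular smooth muscle, at 2.62 in the odor-enriched and 0.53 in the control bulb (2.09).

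The myosin light chains of fast fibres did not follow Myl10. Mylpf, the regulatory light chain of fast skeletal fibres, had 30.6 on the odor-enriched array and 37.6 on the control array at its first probe, and 9.60 on the odor-enriched array and 12.3 on the control array at its second. The scaled differences were 0.01 and -0.05, so the groups nearly coincided at both probes. Myl1 encodes the essential light chains of fast fibres, which arise as a long and a short form from separate promoters. Its measured probes had 38.3 and 37.6 on the odor-enriched array against 23.3 and 26.7 on the control array. Their differences were 1.03 and 0.81, a gene value of 0.92. Another Myl1 probe passed only a looser detection flag and went the other way, with 2.78 in the odor-enriched and 4.76 in the control bulb. Under that flag, which counts this probe, the gene value was 0.46. The Myl1 probe for the short form, called 3f in the array's description, was not above background on either array, with 1.71 in the odor-enriched and 0.994 in the control bulb.

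Tnni2, the inhibitory subunit of fast troponin, had 117 on the odor-enriched array and 125 on the control array, a scaled difference of 0.22. Tnnt3, the tropomyosin-binding subunit, was measured on both arrays by 1 of 3 probes, with 29.3 in the odor-enriched and 50.6 in the control bulb, a scaled difference of -0.48. Its other probes were well above background in the control bulb only, with 1.65 and 4.49 on the odor-enriched array against 9.48 and 6.68 on the control array. On the odor-enriched array those probes have only an upper bound, so no fold is given for them.

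Of the added members from calcium handling, the Z-disc and energy supply, only Atp2a1 was measured on both arrays. It did not repeat the difference of Myoz1, and for Actn3 and Ckm this cannot be said either way. Atp2a1, the calcium pump of the fast sarcoplasmic reticulum, had 20.3 on the odor-enriched array and 26.0 on the control array, a scaled difference of -0.04. Actn3, the alpha-actinin of fast Z-discs, had 1.63 on the odor-enriched array and 4.41 on the control array, and Ckm, the muscle creatine kinase, had 1.64 on the odor-enriched array and 2.09 on the control array. Both were below the limit for well above background on each array, so no fold is given. Both passed the looser detection flag on the control array only. These are abundant transcripts of fast muscle fibres, and their signals here lay close to the background.

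Set in order, the differences were -3.62 for Myl10, -3.45 for Myoz1, -0.48 for Tnnt3, -0.04 for Atp2a1, -0.02 for Mylpf, 0.22 for Tnni2, 0.92 for Myl1 and 1.30 for Acta1. A gap of 2.97 separated Myoz1 from Tnnt3, and since the pair was chosen by its low values, nothing is read from that gap. The pooled SD among probes of the same gene was 0.63 over 8234 genes, and that among repeat spots of a probe 0.047 over 300 probes. The first of these is the spread of a single probe, and an order between 2 genes carries the spread of both. Measured against it, Myl10 and Myoz1 cannot be ordered, nor can Tnnt3, Atp2a1, Mylpf and Tnni2, nor Tnni2 and Myl1, nor Myl1 and Acta1. Neither SD includes the spread between mice. The 6 measured members other than the pair had a median of 0.10, with 1 at least 2-fold higher and 0 lower, against a median of 0.00 over all measured genes.

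**Figure D2:**
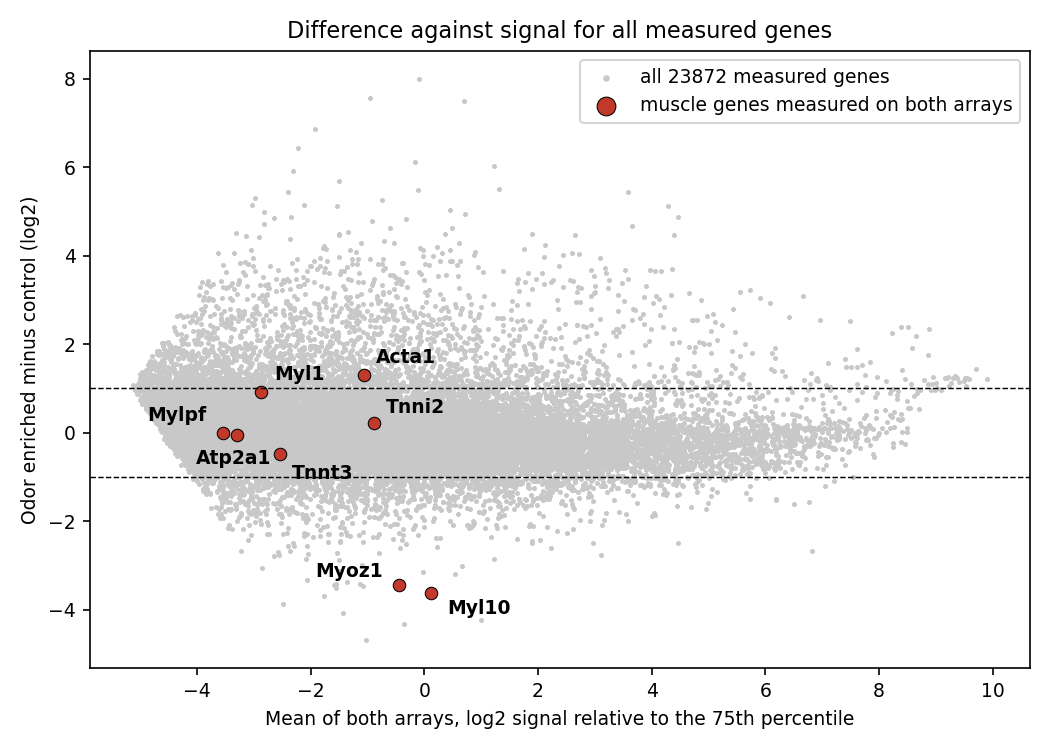
Difference between the odor-enriched and the control bulb (vertical axis, log2) against the mean log2 signal of both arrays (horizontal axis) for 23872 genes, with the 8 measured muscle genes in red and 2-fold marked by dashed lines. Myl10 and Myoz1 lie at the lower edge of the cloud, and the other 6 lie within it between -0.48 and 1.30.

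Other ways of processing the arrays moved the genes by unequal amounts. Myl10 ranged from -3.79 to -1.27 and Myoz1 from -3.62 to -2.42 over 12 alternatives, and E1A scaling gave -5.38 and -5.21. The value of -1.27 came from averaging in the second Myl10 probe, which was at background on both arrays. Under E1A scaling 6 of the measured members were at least 2-fold lower, but 19961 of all genes were too. Without that scaling, Acta1 stayed between 0.86 and 1.63, Myl1 between 0.46 and 1.25 and Tnni2 between 0.04 and 0.55. Tnnt3 stayed below 0, between -0.98 and -0.06, while Atp2a1 and Mylpf changed sign. The value of -0.98 came from averaging in the Tnnt3 probes that were well above background in the control bulb only.

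**Figure D3:**
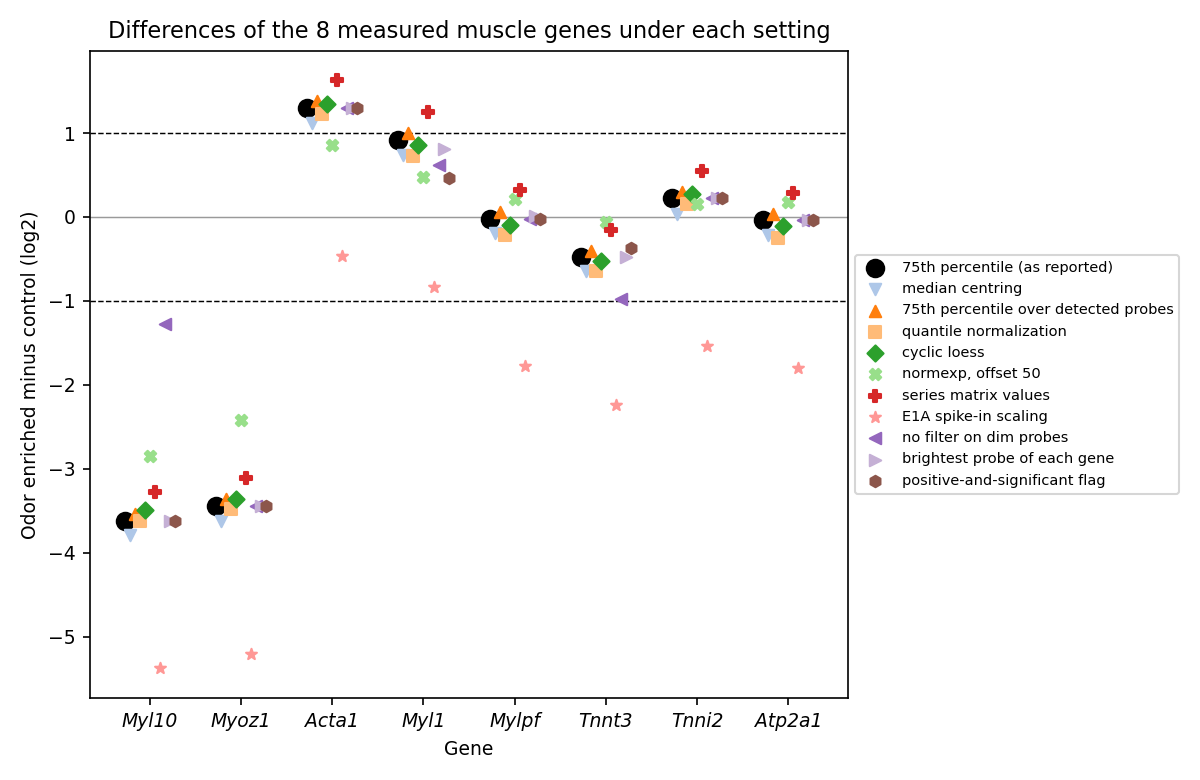
Difference between the odor-enriched and the control bulb (vertical axis, log2) for the 8 measured muscle genes (horizontal axis) as reported, large black circles, and under 10 other settings, with dashed lines at 2-fold. Myl10 and Myoz1 stay below -1 in every setting drawn, Acta1 is above 0 in each but the E1A spike-in scaling, which gives -0.46, and that scaling shifts all 8 genes down together.

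A wider look took 113 further genes of striated muscle in 7 lists. Both arrays measured 77 of them. In the odor-enriched bulb 15 were higher by 2-fold or more and 8 lower. The split was 11 higher and 14 lower with median centring, 12 and 11 with quantile normalization, 19 and 5 with the series matrix and 1 higher and 60 lower with E1A scaling. In percent of the measured genes the reported counts were 19.5 and 10.4, against 11.5 and 5.52 of all genes. Their median was 0.09, and it was below 0 with median centring (-0.09), quantile normalization (-0.04), the either-array filter (-0.09) and E1A scaling (-1.67). That filter keeps probes well above background on at least 1 array. A further 11 were well above background in the control bulb only, which is 9.73% against 7.29% of all gene names. In the odor-enriched bulb only there were 0, against 1.21% of all gene names. On neither array were 22.1% of the 113, against 27.1% of all gene names. The limit for well above background was higher on the odor-enriched array, at -4.66, than on the control array, at -5.69.

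In the list of fast fibre sarcomere genes, 3 of 13 measured genes were at least 2-fold higher and 2 lower. The list's median of 0.26 was -0.19 with the either-array filter and below 0 with E1A scaling. Tnnc2, the calcium-binding subunit of fast troponin, was lower at -1.67, standing at -2.23 in the odor-enriched and -0.55 in the control bulb. Mybpc1, the slow form of a myosin-binding protein though counted in this list, was lower at -1.39 over 4 probes from -2.33 to -0.86. Its fast form, Mybpc2, was well above background in the control bulb only. It stood at -5.57 in the odor-enriched and -5.3 in the control bulb, so no fold is given. Higher were Myom1 of the M-band (1.91), the tropomyosin Tpm2 (1.87) and Pdlim3 of the Z-disc (1.75). The fast myosin heavy chains disagreed. Myh1 was well above background in the control bulb only, at -5.35 in the odor-enriched and -2.54 in the control bulb, at least 4.33-fold lower. Myh2 was in the control bulb only as well, with no bound that exceeds the limit, and Myh4 stood at 0.98 with probes at -0.14 and 2.11. Myom2, another M-band gene, was well above background in the control bulb only and at least 2.28-fold lower by its probes above background there. Bounds are measured against the higher of the odor-enriched array's lowest signal well above background and the probe's own signal there.

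In the list of slow fibre genes, many of which the heart also uses, 3 of 9 measured genes were at least 2-fold higher, 1 was lower and 5 were within 2-fold, with a median of 0.61 (-1.15 with E1A scaling). Myl2, the regulatory light chain of heart and slow fibres, was 5.36-fold higher at 2.42, with 1.92 in the odor-enriched and -0.51 in the control bulb. Actc1 and the slow troponin Tnni1 followed at 1.83 and 1.40, the latter from probes at 0.57 and 2.24. The lower gene was Myoz2, the heart relative of Myoz1, at -1.58, with -4.35 in the odor-enriched and -2.76 in the control bulb. In the heart list 5 of 9 were at least 2-fold higher and 0 lower, with a median of 1.09 (0.41 with normexp, -0.67 with E1A scaling). Its highest were the atrial light chain Myl7 (1.74), the calcium pump inhibitor Pln (1.51) and the peptide hormone gene Nppb (1.16), and the other 4 were within 2-fold, with Nppa lowest at -0.84. Nppb, at -4.33 in the odor-enriched and -5.49 in the control bulb, lay close to the limit for well above background on each array.

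In excitation and calcium release, 2 of 15 measured genes were at least 2-fold higher and 1 lower. The heart calsequestrin Casq2 stood at 2.38 and the junctophilin Jph2 at 1.04, while Cacna1s, the voltage sensor of skeletal muscle, stood at -1.08. The list's median of 0.09 turned to -0.09 with median centring, and it was also below 0 with quantile, cyclic loess and E1A scaling and with the either-array filter. Energy genes of muscle had a median of -0.50. The cytochrome oxidase subunits Cox7a1 (-1.38) and Cox8b, at 2.01-fold, were the 2 of 11 that were lower by 2-fold or more, and 0 were higher. Some of these, such as Pfkm and Ak1, are known from brain as well. The oxygen store Mb, the mitochondrial creatine kinase Ckmt2 and Ampd1 were well above background on neither array.

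Among 15 regulators of muscle formation and markers of its precursors, 6 were well above background on neither array, against 27.1% of all gene names. Myf5, Myf6, Myog and Pax7 were among these 6, and Myod1 was well above background in the control bulb only. Of the 8 measured, 1 was at least 2-fold lower, Cdh15, a cadherin of muscle precursors and of cerebellar granule cells, at -1.75. Of 12 measured cytoskeletal and membrane genes, Mustn1 (2.79) and the intermediate filament gene Des (1.53) were at least 2-fold higher and the ubiquitin ligase Trim63 (-1.20) lower. The probes of Des stood at 0.75 and 2.31. A list of 12 defining genes of skeletal muscle fibres, which includes 8 of the members, had a median of -0.02 over 9 measured genes. Their summed signal was 2.26 in the odor-enriched and 2.16 in the control bulb, in multiples of the array's 75th percentile signal. Opposite differences enter these sums, with Acta1 at 1.30 and Tnnc2 at -1.67. Ckm, Actn3 and Mb were not well above background on either array.

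**Figure D4:**
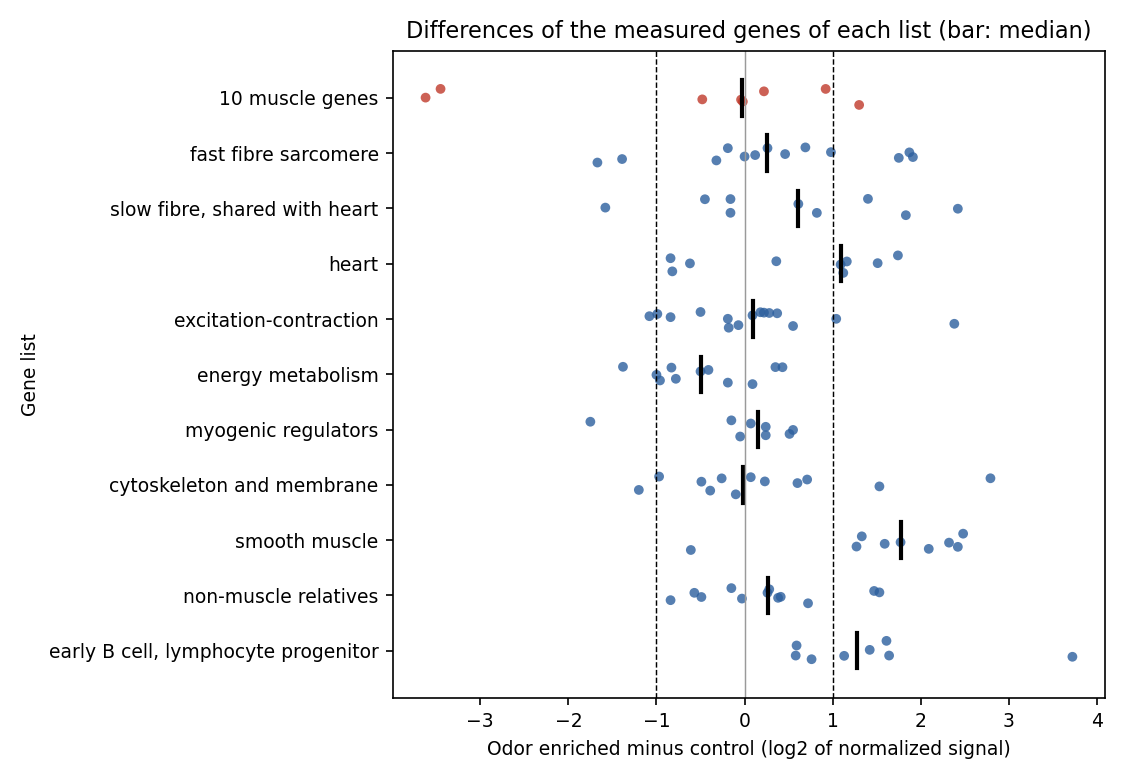
Difference between the odor-enriched and the control bulb (horizontal axis, log2) for each measured gene of 11 lists (vertical axis), with the median as a black bar and 2-fold as dashed lines. Only Myl10 and Myoz1 lie below -3, the smooth muscle genes lie mostly above 1, a list whose median is 0.01 under E1A scaling, and the medians of the 7 striated muscle lists lie between -0.50 and 1.09, all of them below 0 under that scaling.

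Among the myosin light chains, Myl6 (-0.15), Myl6b (-0.57), Myl12a (0.28) and Myl12b (-0.03) were within 2-fold, and Myl4 (1.12) and the smooth muscle chain Myl9 (1.27) were higher. Myl3 was not well above background on either array. Of 14 measured Myl and Myoz genes, Myl10 and Myoz1 stood lowest. They were chosen by their low values, so nothing is read from that place. The third myozenin gene, Myoz3, stood at -0.19. Brain creatine kinase, Ckb, stood at -0.84 and Ckmt1 at -0.49. The cytoplasmic actins Actb and Actg1 stood at 0.72 and 0.26, the alpha-actinins Actn1 and Actn4 at 1.53 and 0.41, and the calcium pumps Atp2a2 and Atp2a3 at 0.38 and 1.47.

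Of 9 measured smooth muscle genes, 8 were at least 2-fold higher and 0 lower, with a median of 1.77 that was 0.01 with E1A scaling, led by Myh11 (2.48), Tagln (2.42) and Cnn1 (2.32). Their summed signal was 107 in the odor-enriched and 35.9 in the control bulb, and Lmod1 was not well above background on either array. These values stand beside the higher Acta1, Actc1, Des and Tpm2, and their part in those differences was not tested. Of 7 measured olfactory sensory neuron genes, 6 were at least 2-fold lower, the lowest being Omp (-2.68), Ano2 (-1.84) and Gng13 (-1.58). Among the 6, Stoml3 (-1.48) averaged probes that disagreed, at -3.67 and 0.71. A further 2 genes were above background in the control bulb only. The summed signal of the 7 measured genes was 112 in the odor-enriched and 486 in the control bulb, and most of it came from the probes of Omp and Gng13. These values stand beside the lower Myl10 and Myoz1, and their part was not tested. Of the 10 bulb neuron genes, 1 was at least 2-fold higher, Tbx21 (3.11), a transcription factor gene of projection neurons, and 2 were lower, the glutamate transporter gene Slc17a7 (-1.67) and the protocadherin-related Cdhr1 (-1.40). Genes of early B cells and lymphocyte progenitors, the cells of the second Myl10 probe's transcript, had a median of 1.27. It was 0.61 with normexp and -0.49 with E1A scaling. Of the 8 measured, 5 were higher by 2-fold or more and 0 lower. The highest were Vpreb2, a surrogate light chain gene, at 3.72, the transcription factor gene Ebf1 at 1.64 and Vpreb3 at 1.61. Their summed signal was 36.3 in the odor-enriched and 4.20 in the control bulb. Most of both sums came from the 1 probe of Vpreb2, which stood at 5.04 in the odor-enriched and 1.32 in the control bulb. In the same list, Igll1, Rag1 and Rag2 were well above background on neither array, and Cd79a in the control bulb only.

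The genes next to the pair on the chromosome, looked up after the values were seen, were not lower by 2-fold. Beside Myl10, Cux1 stood at -0.59 and Col26a1 at -0.20, with Sh2b2 at -0.81 and Ift22 at -0.44 further out. Beside Myoz1, Usp54 stood at -0.76 and Synpo2l, itself a gene of muscle Z-discs, at 1.16, with 3.66 in the odor-enriched and 2.50 in the control bulb. Further out, Ppp3cb, a catalytic subunit of calcineurin, stood at 0.23 and Sec24c at -0.29.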

How the data were processed

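RNA of 2 olfactory bulb samples, 1 odor enriched and 1 control, was measured on 2 single-colour arrays of one slide. Per the file headers, Agilent Feature Extraction 11.5.1.1 subtracted background and detrended each array to make the processed signal, an intensity that was left unscaled across arrays. Log2 values in the deposited series matrix differ from the log2 processed signal by a constant per array of unstated origin (SD of the difference 0.001 in the odor-enriched and 0.009 in the control array), with medians of -8.98 in the odor-enriched and -9.48 in the control column. It served as an alternative.

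Outlier-flagged spots (183 on the odor-enriched and 122 on the control array) were left out. Log2 signals of a probe were averaged and the array's 75th percentile subtracted (7.66 on the odor-enriched and 7.97 on the control array). Probes well above background on both arrays were averaged per gene, and 2-fold was the threshold. Of the 59305 spots that were not controls, 67.6% in the odor-enriched and 73.7% in the control array were well above background, and none was saturated. The number of arrays limits the precision.

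The members, lists and alternatives were chosen with earlier results of these data known. All members were named, and of each list the members past 2-fold (at most the 3 highest and 3 lowest), otherwise the highest and lowest; the relatives and all Myl and Myoz genes were also named. No gene was named for a similar pattern, since 2 arrays give 1 difference per gene. The list of bone and cartilage genes is reported under the other observations. All 10 member symbols matched RefSeq (GRCm38.p6), used for names and gene order only. The tools were R 4.3.3, limma 3.58.1, Python 3.11.15, pandas 2.3.3, numpy 2.4.6 and matplotlib 3.10.9, and the gene-level steps were tested on simulated data.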

Additional observations from a re-analysis of the deposited data

How the results depend on the processing

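Of 15 alternatives, 13 changed the values of single genes and 2, with other fold thresholds, bore on counts alone. Myl10 was -5.38 with E1A scaling, -2.85 with normexp and -1.27 with no filter on dim probes; Myoz1 was -5.21 with E1A scaling and -2.42 with normexp. Acta1 was -0.46 with E1A scaling, where the heart and lymphocyte lists also turned, to -0.67 and -0.49, and the pooled striated muscle median was -1.67. With normexp the heart list had a median of 0.41 and the lymphocyte list 0.61. Members at least 2-fold lower numbered 6 with E1A scaling and 2 or 3 otherwise. Members at least 2-fold higher numbered 0 with E1A scaling, normexp and a 3-fold threshold, and 2 with the series matrix and a 1.5-fold threshold. Of the pooled striated muscle genes, those higher numbered 1 with E1A scaling, 6 with normexp, 33 with no filter and 8 at 3-fold. Those lower numbered 14 with median centring, 60 with E1A scaling, 3 with normexp, 5 with the series matrix, 17 at 1.5-fold and 2 at 3-fold. Of all genes, those higher numbered 376 with E1A scaling, 1256 with normexp, 4466 with the series matrix, 9379 with no filter, 5072 at 1.5-fold and 1286 at 3-fold. Those lower numbered 2061 with median centring, 19961 with E1A scaling, 622 with normexp, 582 with the series matrix, 2380 with the either-array filter, 2294 with no filter, 3891 at 1.5-fold and 330 at 3-fold. The normexp offset of 50 is added to each signal and shrinks the log2 differences of dim genes. Of 8 E1A probes, 7 were 2.35 to 3.08 times brighter on the odor-enriched array and 1 was 21.5 times brighter. The cause of the other shifts was not tested. No paired analysis was possible because each group is 1 array, which also left no replicate to omit. Members near background, such as Ckm and Actn3, have no measurable difference at this signal.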

Other observations

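Bone and cartilage genes, from tissue that lies next to the bulb, had a median of 0.71 over 8 measured genes, of which 2 were higher by 2-fold or more and 0 lower. The collagenase gene Mmp13 stood at -1.38 in the odor-enriched and -5.00 in the control bulb (3.63), the osteocalcin gene Bglap at 1.48, and the bone transcription factor Sp7 was lowest at -0.83. Ibsp and Col10a1 were well above background on neither array.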
